A study of Mus musculus with 4 samples.

Results

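Clec4f, Vsig4, Timd4, Cd5l, Marco, Cd163, Spic and Vcam1 are genes by which macrophages of the mouse liver and spleen are recognised, and their levels were followed in RNA pools from both organs on 2 diets. They are 8 of the 27670 gene labels of the array and are read by 11 of its 41174 probes. Probes were taken by their gene name in the scanner files, and where a gene had several, the brightest over all arrays was used. The genes were chosen by their measured values, namely their levels in the 4 pools and their diet ratios, so both are given as descriptions without a test.

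Male C57BL/6J mice of 13 weeks were fed for 4 weeks, and the growth protocol in the labels names a standard chow for all animals. The control was a purified diet poor in nucleic acids (low NP, 0.03% nucleic acids), and the treated mice received that diet with 1.2% of a nucleoprotein preparation added (NP, 0.5% nucleic acids). Total RNA of whole liver or whole spleen was pooled within each diet before labelling, and how many mice went into a pool is not stated in the labels. The 4 pools were NP liver, low-NP liver, NP spleen and low-NP spleen, and each of the 4 arrays carried the NP and the low-NP pool of 1 tissue in different dyes. Array 1 of each tissue held the NP pool in Cy5 and array 2 held it in Cy3. The labels do not settle whether the arrays of a tissue carried the same pools or pools of their own, so each diet and tissue was counted as 1 replicate and no p-value is given. Errors after ± are the distance of either array from the mean of both arrays, which covers labelling and hybridisation but not the spread between mice.

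Kupffer cells are the resident macrophages of the liver sinusoids, where they take up particles, complement-coated microbes and worn-out red cells from the portal blood. Red pulp macrophages of the spleen clear aged red cells and return their iron to the circulation, and marginal zone macrophages of the spleen sample blood-borne antigens. In whole-organ RNA, fewer cells of a type and less of a transcript per cell cannot be told apart. Clec4f encodes a lectin known as a Kupffer cell marker, and Vsig4 a complement receptor of resident macrophages. Timd4 encodes a phosphatidylserine receptor for dying cells, Cd5l a secreted scavenger protein, Marco a scavenger receptor and Cd163 the haemoglobin-haptoglobin receptor. Spic encodes the transcription factor needed for red pulp macrophages, and Vcam1 an adhesion molecule carried by these macrophages and by endothelium.

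The probes behind every value are given first, because a level on these arrays belongs to a probe and was compared between pools only within that probe. The first 30 of the 60 bases of each brightest probe are shown in lower case, with the position and strand that the array files give in the mm7 build. Exon and UTR positions of the probes were not analysed here.
Clec4f, chr6:83670672-83670730, minus strand: aactggagacataggaacggagagcgagaa
Vsig4, chrX:91575173-91575232, minus strand: aagacaagcaactctgaagaaaccacaagg
Timd4, chr11:46800424-46800483, plus strand: acttcttttcacattcaagtttctttaaag
Cd5l, chr3:87483753-87483812, plus strand: atggtagagacttgaggagttgggacctcg
Marco, chr1:120342087-120342147, minus strand: gagcccgagaggtcatcagtgtgtccccag
Cd163, chr6:124312766-124312825, plus strand: cagtgcatcatgtccaaatatgacatgtcc
Spic, chr10:88234176-88234235, minus strand: gagccagaatgtcttcagaaaaatgtgggg
Vcam1, chr3:115885211-115885270, minus strand: tatatttttataggcaaatggtaaagaggt

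By the flags of the scanner software all 8 genes were well above background in all 8 channels, and no channel was saturated. The 4 arrays were on 1 slide. Spleen array 1 stood apart in background, with a median negative-control signal of 307 in the NP channel and 156 in the low-NP channel, against 62.7 to 74.0 in the other 6 channels. Between 93.1% and 94.7% of probes passed as well above background on that array, against 58.7% to 67.5% on the other 3. The low-NP pools also held markers of the other organ. The summed signal of 12 hepatocyte markers was 1898940 and 1383270 in low-NP spleen, about as high as in the liver pools (1215100 to 2043210), against 47583 and 12784 in NP spleen. These sums include 2 saturated markers in NP liver, 1 in low-NP liver and 1 in low-NP spleen. Single markers differed widely. Over 10 unsaturated ones, low-NP spleen exceeded NP spleen by a median of 38.2% of the NP liver level, from 18.5% to 219%. B cell markers, which are rich in spleen, summed to 103162 and 117283 in low-NP liver against 9013 and 5314 in NP liver. Whether the low-NP pools held RNA of both organs was not tested, and since every diet ratio has a low-NP pool as its denominator, no ratio could be given without them. Levels below are log2 normalized signals, and differences between pools are log2 differences or folds computed from them.

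Before the diets are compared, the levels show where each gene was found. Clec4f was at 13.39 and 13.50 in NP liver, 13.44 and 13.25 in low-NP liver, 11.48 and 11.40 in low-NP spleen, and 10.13 and 7.04 in NP spleen. Both liver pools overlapped, low-NP spleen was apart below them, and NP spleen was lowest on both arrays but by very different amounts. The raw NP spleen signal of Clec4f was 2677 on array 1, which had the raised background, and 83.2 on array 2, where negative controls had a median of 62.7. Vsig4 was at 11.85 and 11.76 in NP liver, 11.61 and 11.63 in low-NP liver, 9.82 and 10.07 in low-NP spleen, and 9.23 and 7.71 in NP spleen. Its 4 pools did not overlap and took the same order as those of Clec4f. Its raw NP spleen signals were 1790 and 113.

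Spic, Vcam1, Marco and Timd4 had the opposite order, with NP liver lowest. Spic was at 14.85 and 15.15 in NP spleen, 14.78 and 14.69 in low-NP spleen, 11.66 and 11.98 in low-NP liver, and 9.92 and 9.55 in NP liver. Vcam1 was at 15.41 and 15.38 in NP spleen, 15.27 and 15.22 in low-NP spleen, 12.82 and 12.96 in low-NP liver, and 10.70 and 10.45 in NP liver. For both genes all 4 pools were apart, although the spleen pools were separated by little. Marco was at 16.24 and 16.57 in NP spleen, 16.20 and 16.28 in low-NP spleen, 14.14 and 13.76 in low-NP liver, and 12.57 and 12.71 in NP liver. Timd4 was at 11.90 and 12.12 in NP spleen, 11.83 and 11.98 in low-NP spleen, 10.44 and 10.61 in low-NP liver, and 10.05 and 9.90 in NP liver. For Marco and Timd4 the spleen pools overlapped, and low-NP liver was above NP liver on both arrays.

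Cd5l and Cd163 differed less between the organs. Cd5l was at 14.75 and 14.90 in NP liver, 14.98 and 14.88 in low-NP liver, 15.41 and 15.44 in NP spleen, and 15.49 and 15.46 in low-NP spleen. Cd163 was at 11.58 and 11.49 in NP liver, 11.32 and 11.61 in low-NP liver, 12.14 and 12.22 in NP spleen, and 12.15 and 12.18 in low-NP spleen. The liver pools overlapped for both genes, and the spleen pools overlapped for Cd163. The plot of levels shows all values by pool and array.

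**Figure D1:**
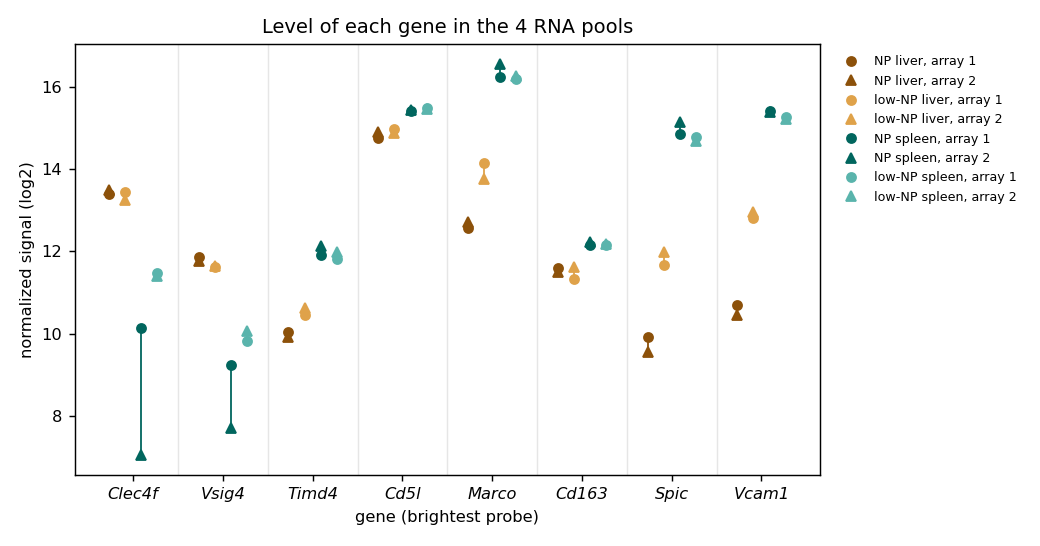
Normalized log2 signal of the brightest probe of each of the 8 genes (x axis) in the 4 RNA pools, with circles for array 1 and triangles for array 2 of a tissue, joined by a line. Clec4f and Vsig4 sit highest in the liver pools, Timd4, Marco, Spic and Vcam1 highest in the spleen pools with NP liver lowest, and the long line at Clec4f joins the NP spleen values of 10.13 and 7.04.

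The difference between the organs was wide in the NP pools and narrower in the low-NP pools. Between the NP pools, 4 genes were at least 2-fold higher in spleen on every pairing of arrays, against 15.9% of the 16493 genes measured in both tissues. Clec4f and Vsig4 were at least 2-fold higher in liver, against 15.0% of those genes, and Cd5l and Cd163 were neither. Spic was 38.3-fold higher in NP spleen than in NP liver and 7.56-fold higher in low-NP spleen than in low-NP liver. For Vcam1 these folds were 28.3 and 5.11, for Marco 13.6 and 4.89, and for Timd4 4.10 and 2.60. Clec4f was 29.1-fold higher in NP liver than in NP spleen and 3.75-fold higher between the low-NP pools, and for Vsig4 the folds were 10.1 and 3.20. Cd5l was 1.51-fold higher in NP spleen and 1.46-fold higher in low-NP spleen, and Cd163 1.57-fold and 1.63-fold. The 6 genes that differed between the organs in the NP pools thus all differed less in the low-NP pools, while the folds of Cd5l and Cd163 were nearly equal on both diets. These levels were set across arrays after between-array scaling. The NP fold of Clec4f was 9.59 on array 1 and 88.1 on array 2, and that of Vsig4 6.16 and 16.5, so these folds rest largely on the array. With processed signals scaled to the 75th percentile, the NP and low-NP folds were 93.9 and 7.02 for Clec4f, 20.3 and 5.08 for Vsig4, and 7.77 and 2.63 for Marco. On that scale they were 32.6 and 4.73 for Spic, 19.8 and 3.03 for Vcam1, and 4.13 and 2.21 for Timd4. The low-NP fold was the smaller under each scaling for all 6 genes. In log2 units this narrowing is the gap between the spleen and liver diet ratios, which were among the values that chose the genes. It is therefore no separate result. Scaling between arrays leaves the ratios within an array unchanged, so levels with and without it narrow equally by construction. Under 2 other scalings the NP organ difference of those 6 genes kept its direction, but with processed signals scaled to the 75th percentile Cd5l was lower in NP spleen than in NP liver, at -0.47 log2 units, so its direction is not settled.

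In liver, Vcam1, Spic and Marco were lower in the NP pool than in the low-NP pool, and no gene of the 8 was higher. A call required a difference of 1.5-fold or more, a log2 ratio of 0.58 in size, on array 1 and array 2 alike and in the same direction. All signs here are NP over low NP, which is the opposite of the deposited value table, where every column ran as low NP over NP. Vcam1 had log2 ratios of -2.12 and -2.51, a mean of -2.32 ± 0.20 (n = 2 arrays) or 4.98-fold lower. Spic had -1.74 and -2.43, a mean of -2.08 ± 0.34 or 4.24-fold lower. Marco had -1.58 and -1.06, a mean of -1.32 ± 0.26 or 2.49-fold lower. The call itself requires the same sign on both arrays, and for these 3 genes the smaller of the ratios of each gene was past 2-fold.

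The 3 calls set beside 3.65% of the 16975 measured liver genes called lower and 0.0707% called higher, and since these ratios were among the values that chose the genes, nothing is read from that comparison. On the processed signals of the scanner software the liver counts were 297 genes higher and 1746 lower, against 12 and 620 here. Timd4 had -0.39 and -0.71 (mean -0.55 ± 0.16) and passed the threshold on array 2 alone. The remaining 4 genes were closer to 0. Clec4f had -0.05 and 0.25, Vsig4 0.24 and 0.12, Cd5l -0.23 and 0.02, and Cd163 0.27 and -0.12. Of these, only Vsig4 had the same sign on both arrays, with a mean of 0.18 ± 0.06. The median over the 8 genes was -0.33, against 0.00077 over all measured liver genes, and for the same reason nothing is read from this contrast.

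In spleen the genes called were Clec4f and Vsig4, neither of which was called in liver. Clec4f had log2 ratios of -1.34 and -4.36, a mean of -2.85 ± 1.51 or 7.23-fold lower in the NP pool. Vsig4 had -0.59 and -2.35, a mean of -1.47 ± 0.88 or 2.78-fold lower. Both were called lower, although Vsig4 on array 1 was barely past the threshold and lost its call under 5 of the alternative settings tried. For both genes array 1, with the raised background, gave the smaller ratio. The larger ratios came from array 2, where the raw NP spleen signals were 83.2 for Clec4f and 113 for Vsig4. Negative controls in that channel had a median of 62.7, so the size of these ratios rests on signals near the floor. In spleen 6.35% of the 18420 measured genes were called lower and 0.0434% higher, and again nothing is read from the members' count.

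The other 6 genes were near 0 in spleen. Spic had 0.06 and 0.45, Vcam1 0.14 and 0.16, Marco 0.03 and 0.29, and Timd4 0.08 and 0.14. These 4 were slightly above 0 on both arrays, but with median centring in place of loess their means were -0.04, -0.14, -0.15 and -0.14, so no direction is given for them. Cd5l had -0.08 and -0.02, and Cd163 -0.01 and 0.04. Median centring shifted the median of all measured spleen genes from -0.02 to -0.15. The median over the 8 genes was 0.06. The plot of diet ratios sets both tissues side by side, and no gene was called in both.

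**Figure D2:**
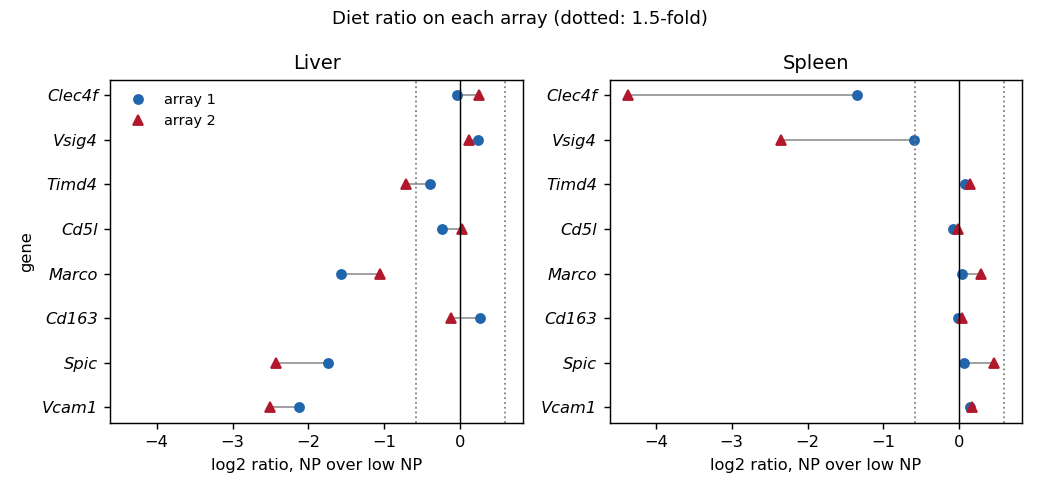
Log2 ratio of the NP pool over the low-NP pool (x axis) of each gene in liver (left) and spleen (right), with a circle for array 1, a triangle for array 2 and dotted lines at 1.5-fold. Marco, Spic and Vcam1 lie past the left dotted line on both liver arrays, and Clec4f and Vsig4 on both spleen arrays, with Vsig4 array 1 (-0.59) just past it.

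Genes with further probes gave a check within the same hybridisations. The other probe of Spic had liver ratios of -1.09 and -2.39 (mean -1.74) and spleen ratios of 0.27 and 0.08. Another Vcam1 probe had -0.28 and -1.09 in liver (mean -0.69), short of the threshold on array 1, and -0.05 and 0.14 in spleen. The remaining Vcam1 probe, designed on the cDNA AK085320, was above background in only 2 channels and had -0.01 and 0.24 in liver. The probes of Vcam1 therefore disagreed in the size of its liver ratio, and the mean over its measured probes was -1.50.

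The diet ratio of each gene was set against the level difference between the organs. The 5 calls fell on genes that were lower in that organ than in the other in the NP pools, while Timd4, which was also lower in NP liver, was not called. Over all 16493 genes measured in both tissues, 22.9% of the 2619 genes higher in NP spleen were called lower in liver, against 0.0404% of the 2474 higher in NP liver and 0.158% of the 11400 that were neither. In spleen, 44.6% of the genes higher in NP liver were called lower, against 0.496% and 0.430%. Both measures share the NP pools, so an NP value that is low by error enters both. Genes whose organ difference lay within 0.25 log2 units of that of a given gene show the general course. Around Vcam1, 42 such genes had a median liver ratio of -2.33 (quartiles -2.49 and -2.08), and Vcam1 itself was at -2.32. Around Timd4, 562 genes had a median of -0.52 (quartiles -0.63 and -0.40), against -0.55 for Timd4. Around Marco, 125 genes had a median of -1.53 (quartiles -1.68 and -1.37), and Marco at -1.32 was closer to 0. Around Spic, 34 genes had a median of -2.65 (quartiles -2.86 and -2.50), and Spic at -2.08 was closer to 0. In spleen, 100 genes around Clec4f had a median of -2.43 (quartiles -2.63 and -2.23), against -2.85 for Clec4f. Around Vsig4, 145 genes had a median of -1.15 (quartiles -1.36 and -1.04), against -1.47 for Vsig4. Vcam1 and Timd4 lay within the quartiles of genes with a like organ difference, Marco and Spic above them, and Clec4f and Vsig4 below them, by less than the distance between their own arrays. Of the remaining pairs of gene and tissue, Cd163 in liver (0.07, upper quartile -0.02) and Spic in spleen (0.26, upper quartile 0.22) lay above their quartiles. Cd5l in spleen (-0.05, lower quartile -0.009) lay below, and the rest lay within.

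**Figure D3:**
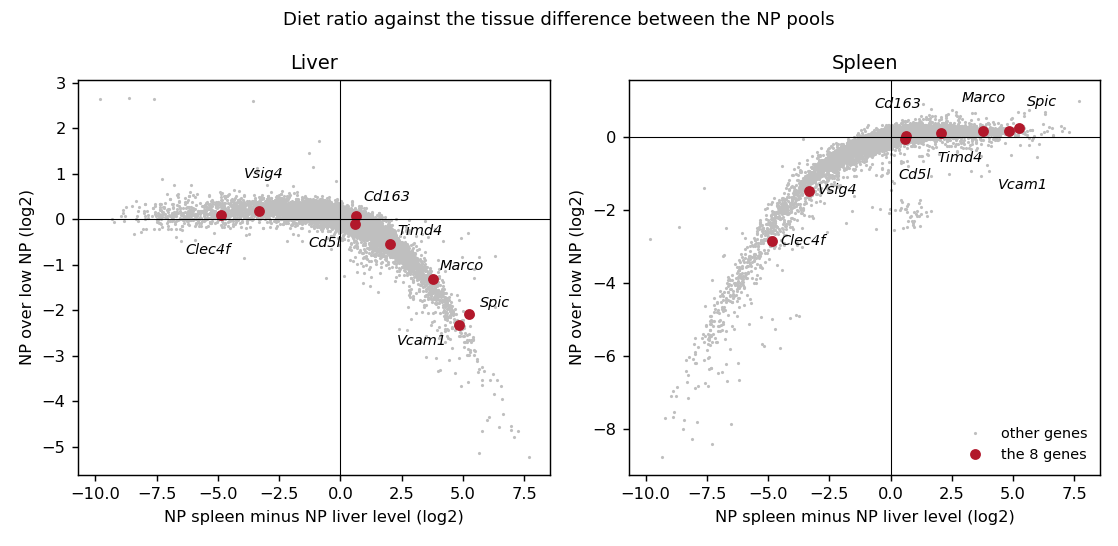
Log2 ratio of NP over low NP in liver (left) and in spleen (right) on the y axis against the log2 level difference between NP spleen and NP liver on the x axis, for 16493 genes in grey and the 8 genes in red. In liver the ratio falls with rising spleen level and Marco, Spic and Vcam1 follow the grey band, and in spleen it falls with rising liver level and Vsig4 and Clec4f follow the band.

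Most B and T cell markers in liver and all hepatocyte markers in spleen were also lower in the NP pool, while other marker lists varied. In liver 10 of 12 B cell markers and 8 of 12 T cell markers were lower in the NP pool, with medians of -2.10 and -1.94, and none of either list was higher. The summed B cell marker signal was between 385139 and 501076 in the spleen pools, above both liver pools. The summed T cell marker signal was 12842 and 10980 in NP liver, 24613 and 31851 in low-NP liver, and 99855 to 108594 in the spleen pools. In spleen 12 of 12 hepatocyte markers were lower in the NP pool, with a median of -6.87. In NP liver 2 of the B cell markers were not well above background on either array, and no hepatocyte marker failed on both arrays of a spleen pool. On spleen array 1 at least 93.1% of all probes passed, so these counts cannot be compared between the tissues. All 12 exocrine pancreas markers were lower in the NP pool in both tissues, with medians of -1.10 in liver and -2.13 in spleen, and with median centring 1 of 12 was still called in liver. Markers of the liver sinusoidal endothelium gave 0 of 12 called in liver, with a median of 0.08. Of neutrophil, dendritic cell and stromal markers, 1 of 9, 4 of 11 and 2 of 11 were lower in liver. In spleen 0 of 11, 0 of 12 and 1 of 11 of them were lower. In these lists 8, 7 and 8 genes were higher in NP spleen and held every liver call. Of all such genes 22.9% were called lower in liver. Of erythroid markers 1 of 8 was lower in liver, and 4 of 11 were higher in spleen, none of which was called with median centring. The part of other cell types, or of RNA of the other organ, in the ratios of Marco, Spic, Vcam1, Clec4f and Vsig4 was not tested.

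To put genes and markers on 1 scale, the excess of the low-NP liver pool over the NP liver pool was expressed as a percentage of the NP spleen level of the same probe, on the linear scale. This excess was 8.45% for Spic, 10.9% for Marco, 11.3% for Timd4 and 14.1% for Vcam1. B cell markers had a median of 15.1% (range 11.0% to 25.7%, 12 markers) and T cell markers 16.7% (14.9% to 18.3%, 8 markers higher in NP spleen and unsaturated). Erythroid markers, which are also rich in spleen, had 2.61% (-3.09% to 8.67%, 8 markers). Over the 2617 unsaturated genes that were higher in NP spleen the median was 10.8%, with quartiles of 7.64% and 13.6%, and over the 539 of these that were at least 8-fold apart it was 13.4%, with quartiles of 11.6% and 15.8%. Against all spleen-rich genes Timd4, Marco and Spic lay within the quartiles and Vcam1 above them. Among those at least 8-fold apart, to which Timd4 does not belong, Vcam1 lay within the quartiles and Marco and Spic below them. These shares move with the scaling of levels, and with processed signals scaled to the 75th percentile Marco was at 20.2%, Spic at 14.0% and Vcam1 at 23.9%, where all spleen-rich genes had quartiles of 8.67% and 17.4% and those at least 8-fold apart 15.2% and 22.4%.

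The converse excess, of low-NP spleen over NP spleen as a percentage of the NP liver level, was 21.4% for Clec4f and 17.6% for Vsig4. The 10 unsaturated hepatocyte markers had a median of 38.2%, from 18.5% to 219%. Over the 2469 unsaturated genes higher in NP liver the median was 11.5% (quartiles 8.52% and 15.6%), and over the 843 at least 8-fold apart it was 15.6% (quartiles 12.5% and 21.2%). Clec4f and Vsig4 were above the upper quartile of all liver-rich genes, and among those at least 8-fold apart Vsig4 lay within the quartiles and Clec4f just above them. With processed signals scaled to the 75th percentile Clec4f was at 12.2% and Vsig4 at 11.8%, where all liver-rich genes had an upper quartile of 9.85% and those at least 8-fold apart 11.7%. The plot of excess shares shows the genes beside the marker lists.

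**Figure D4:**
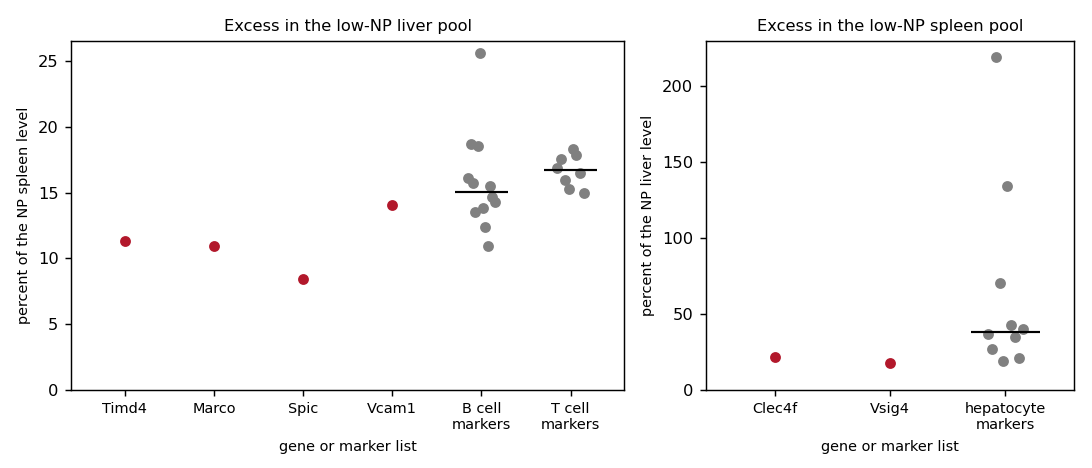
Excess of the low-NP liver pool as a percentage of the NP spleen level (left) and of the low-NP spleen pool as a percentage of the NP liver level (right), with red points for the genes that differed between the NP pools and grey points for single markers, the black bar being the median of a list. Spic (8.45%) to Vcam1 (14.1%) lie at or below most B and T cell markers, and Clec4f (21.4%) and Vsig4 (17.6%) near the low end of the hepatocyte markers.

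Other genes of the same macrophages were read from lists of known markers and pathway members. Among 13 other genes of Kupffer cell identity measured in liver, 0 were called and the median was 0.00, so besides Marco no gene of that list was called there. Fcna, a ficolin, had -0.59 and -0.27 (mean -0.43 ± 0.16), and Folr2, a folate receptor, had 0.19 and 0.28. In spleen 1 of these 13 was lower, C6, a terminal complement component also made by hepatocytes, at -1.09 ± 0.13, and Folr2 at -0.58 and -1.45 narrowly missed the call on array 1.

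Among 10 other red pulp genes, 2 were lower in liver and 0 were called in spleen. Hmox1, the haem-degrading enzyme, was at -1.57 ± 0.09 in liver, and Treml4, a receptor of splenic phagocytes, at -0.91 ± 0.23. The list median without the members was -0.21 in liver and 0.04 in spleen. Of the marginal zone list, Cd209b, the lectin SIGN-R1, was lower in liver at -1.65 ± 0.49 and Csf1r, the receptor for macrophage colony-stimulating factor, at -0.79 ± 0.01. Lyve1, a hyaluronan receptor that liver sinusoidal endothelium also carries, was lower in spleen at -0.76 ± 0.14.

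Genes shared by macrophages and monocytes in general were lower in liver in 9 of 25 cases, with 0 of 25 above 0 and a median of -0.58, but only 2 were called with median centring. Of these 25 genes, 21 were higher in NP spleen and held all 9 calls. Over all genes higher in NP spleen, 22.9% were called lower in liver and the median was -0.52, so nothing particular to macrophages is read from this list. Lyz2, a lysozyme, was at -2.07 ± 0.46 and Aif1, the calcium-binding protein IBA1, at -0.88 ± 0.02. In spleen 0 of 25 were called and the median was 0.15. Of 17 transcription factors, Irf8, needed for monocytes and dendritic cells and also active in B cells, was lower in liver at -2.19 ± 0.29, next to Spic. In spleen Cebpa, Cebpb and Rxra, all well expressed in hepatocytes, were lower at -1.60 ± 0.37, -0.84 ± 0.01 and -0.69 ± 0.02. Spi1, which encodes PU.1, was at 0.37 and 0.36 in spleen and was not called.

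Other genes of the pathways in which the 8 proteins work were also called. Of the scavenger and SRCR receptors, Cd5 and Cd6, both lymphocyte proteins, were lower in liver at -2.38 ± 0.91 and -2.12 ± 0.63 beside Marco. Dmbt1, an SRCR protein, was lower in spleen at -1.83 ± 0.14, although it was not lower in NP spleen than in NP liver. Of the phosphatidylserine pathway of Timd4, Mfge8, a bridging protein, was lower in liver at -2.82 ± 0.02, and Timd2 was lower in spleen at -2.31 ± 0.76. Among complement receptors and ligands, Cr2, Itgax and Itgb2 were lower in liver at -2.08 ± 0.98, -1.56 ± 0.59 and -1.35 ± 0.38, and C3 was lower in spleen at -1.07 ± 0.33 beside Vsig4. Itgb7 and Itga4, whose integrins bind VCAM1, were lower in liver at -2.62 ± 0.39 and -1.34 ± 0.63. In iron recycling, 5 of 18 genes were lower in spleen, among them Hpx, Hp and Hamp, which hepatocytes secrete, at -6.41 ± 0.35, -3.63 ± 0.15 and -3.71 ± 0.46. All 5 were among the 6 genes of that list that were higher in NP liver, and 44.6% of all such genes were called lower in spleen. Ltb, a lymphocyte cytokine, was lower in liver at -3.52 ± 0.29 and was the one gene of 15 niche signals called there. With median centring the counts fell from 3 to 1 for the phosphatidylserine list in liver, from 2 to 0 for complement in spleen and from 5 to 3 for VCAM1 partners in liver.

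Counted once each and without the 8 members, 128 listed genes were measured in both tissues. Of the 57 that were higher in NP spleen, 26 were called lower in liver and 0 in spleen, against 22.9% and 0.496% of all such genes. Of the 19 that were higher in NP liver, 0 were called in liver and 11 were lower in spleen. Over all such genes 0.0404% and 44.6% were lower. Of the 52 that were neither, 0 were called in liver and 2 were lower in spleen, against 0.158% and 0.430%. The difference of these counts from the shares over all genes was not tested. No listed gene was called higher in either tissue.

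The genes whose levels ran most like those of each member were found by the distance between mean-centred log2 levels over the 8 channels, among 13721 named genes measured in both tissues. Nearest to Clec4f were Ces1g at a distance of 0.42 and Mbl1 at 0.61. Nearest to Vsig4 were Cpsf4l at 0.29 and Adtrp at 0.31, and nearest to Marco were Twf2 at 0.40 and Cd63 at 0.44. Nearest to Spic were Cd24a at 0.32 and Lyl1 at 0.38, and nearest to Vcam1 were Arhgdib at 0.20 and Ptpn18 at 0.28. Nearest to Timd4 were Cd300a at 0.09 and Ckb at 0.12. Nearest to Cd5l was Eif5b at 0.13, and nearest to Cd163 was Riox2 at 0.10. Among the members, Cd5l and Cd163 were closest to each other at 0.41, Spic and Vcam1 were 0.80 apart, Clec4f and Vsig4 were 2.19 apart and Clec4f and Spic 11.5 apart.

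The stretches upstream of the genes called in either tissue are shown because members that were called together can then be compared by sequence. They are the 250 bases before the annotated start in the RefSeq table of GRCm38.p6, read on the gene's strand, with GAGGAA (the PU.1 box, the core bound by PU.1 and its relative SPI-C) and TGCTGA (a core bound by MAF factors) in capitals on either strand. Windows were found for 7 of the 8 genes, and Vcam1 is named only.
Clec4f, chr6:83656117-83656366, minus strand: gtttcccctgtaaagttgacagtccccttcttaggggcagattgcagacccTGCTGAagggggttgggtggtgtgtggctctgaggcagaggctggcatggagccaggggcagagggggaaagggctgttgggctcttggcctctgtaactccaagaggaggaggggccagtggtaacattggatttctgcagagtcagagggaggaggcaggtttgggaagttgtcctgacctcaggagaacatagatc
Vsig4, chrX:96293439-96293688, minus strand: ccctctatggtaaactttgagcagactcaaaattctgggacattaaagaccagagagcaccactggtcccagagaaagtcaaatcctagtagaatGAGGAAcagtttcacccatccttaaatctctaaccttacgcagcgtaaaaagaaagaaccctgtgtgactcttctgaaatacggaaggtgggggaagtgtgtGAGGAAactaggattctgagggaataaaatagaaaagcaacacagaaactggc
Marco, chr1:120505025-120505274, minus strand: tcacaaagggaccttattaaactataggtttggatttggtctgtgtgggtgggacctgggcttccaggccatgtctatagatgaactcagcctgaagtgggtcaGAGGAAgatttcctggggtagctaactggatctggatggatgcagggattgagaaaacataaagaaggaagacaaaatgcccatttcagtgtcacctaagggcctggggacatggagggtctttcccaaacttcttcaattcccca
Spic, chr10:88683024-88683273, minus strand: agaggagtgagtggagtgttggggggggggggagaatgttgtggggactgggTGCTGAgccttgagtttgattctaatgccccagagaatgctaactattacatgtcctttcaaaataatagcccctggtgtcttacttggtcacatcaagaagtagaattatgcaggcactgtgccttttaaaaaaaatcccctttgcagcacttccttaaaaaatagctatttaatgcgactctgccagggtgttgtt

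GAGGAA was found in 3 of the 7 windows, those of Vsig4 (starting at -155 and -53 from the gene start), Marco (-146) and Cd5l (-66, on the other strand), and in 23.3% of all 32851 windows of that length. TGCTGA was found in 4 of the 7, those of Clec4f (-199), Spic (-198), Timd4 (-150 and -44, on the other strand) and Cd5l (-54, and -46 on the other strand), and in 16.1% of all windows. TGACTCA, the AP-1 core, was in 0 of the 7 and in 4.46% of all windows. The motifs did not overlap each other in these windows. None of the 3 motifs was shared by the windows of Clec4f and Vsig4, the pair called in spleen, or by Marco and Spic, of those called in liver.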

How the data were processed

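The members, gene lists and rules were chosen with earlier results of these data known. The deposited scanner files hold spot intensity (mean foreground and median local background in both dyes), processed intensity and a log10 ratio, per the file headers. The submitters' processing notes name Agilent Feature Extraction 9.5.3.1. The deposited value table holds log10 ratios, and how they were made is not given in the sources consulted. Its columns correlated negatively with NP over low NP on all 4 arrays, so it was turned before use as an alternative.

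In limma 3.58.1 (R 4.3.3) normexp with offset 50 corrected the mean signals for background, and log2 ratios were normalized by loess within each array, with control and outlier spots at weight 0. Each array had 45018 spots, of which 1639 were controls and 109 to 180 were outliers left out. Levels were scaled between arrays with Aquantile. Spots of a probe were averaged, and levels were compared only within a probe. Of 41174 probes, 22944 were named by accession, 6664 by symbol and 3108 by synonym through RefSeq genes of GRCm38.p6, and 8458 kept their file name. A gene counted as measured in a tissue if each of its arrays had 1 or more channels well above background, and was called at 1.5-fold in the same direction on both. Where the arrays went past 1.5-fold in opposite directions, 41 liver and 25 spleen genes, no call was made. The calls were tested on simulated data. The simulated noise was independent between arrays, with no raised background and no organ difference. It therefore checks how the rule of calling works and not the calls made here. The number of arrays limits the precision, and no test across samples was possible with 1 replicate per diet and tissue.

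Named genes were the 8 members, up to 4 genes of each list with the largest smaller ratio of a tissue's arrays, and the 2 nearest genes by profile. Of the listed genes, Itgad, Ly6c2, Hbb-b1, Ccl21a and Ly6g were not matched to a probe name. Alternatives were other background corrections, normalizations, filters, thresholds, probe rules and level scalings, and each array left out. Tables were made with Python 3.11.15, numpy 2.4.6 and pandas 2.3.3, and figures with matplotlib 3.10.9.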

Additional observations from a re-analysis of the deposited data

Results flagged for a closer look

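For 5 of the 8 genes both liver arrays went one way and both spleen arrays the other. The liver ratio minus the spleen ratio, both log2 NP over low NP, was -2.47 for Vcam1, -2.34 for Spic, -1.48 for Marco, -0.66 for Timd4 and 1.65 for Vsig4. The difference was not tested. With median centring the spleen means of Vcam1, Spic, Marco and Timd4 were below 0, so the opposite signs of these 4 depend on the normalization, while the liver call of Vcam1, Spic and Marco and the spleen sign of Vsig4 do not.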

How the results depend on the processing

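The 5 called ratios (Marco, Spic and Vcam1 in liver, Clec4f and Vsig4 in spleen) kept their sign in 35 of 35 alternatives. Part of this was fixed in advance. A call needs the same sign past the threshold on both arrays, so leaving 1 array out could change neither sign nor call. For Marco, Clec4f and Vsig4, with 1 probe each, the mean over all probes is the main value. The liver call of 3 members held under each alternative, and Timd4 joined them (4) without background correction, with processed signals, with the deposited value table and on array 2 alone. In spleen the 2 called members became 1, Clec4f, without background correction, with processed signals, with median centring, with the deposited value table and at 2-fold. Averaging all probes moved Vcam1 in liver to -1.50. Genes called in liver numbered 632, and 1346 without background correction, 2043 with processed signals, 335 with median centring, 2060 with the deposited value table, 302 at 2-fold, and 1045 to 1991 with 1 array left out. Genes called in spleen numbered 1178 and 773 at 2-fold. The cause of these shifts was not tested, apart from the thresholds and single arrays, which change the count by construction. Under median centring 32 of 40 list counts stayed within 1.5 times and 8 moved. Lists with 0 called under both settings, such as the general macrophage list in spleen, are among the 32, so that number overstates how far the calls held. The organ folds by array and the folds and excess shares under other level scalings were added after seeing the data. Each ratio already pairs the NP and low-NP pool of an array. No paired analysis was possible because a block over pools needs more than 1 replicate per diet and tissue.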
